A study of Callithrix jacchus with 54 samples.

Results

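The genes described here encode parts of the signalling path of leukaemia inhibitory factor (LIF) and the PIM kinases in common marmoset (Callithrix jacchus) embryonic stem cells (cjESCs) and primordial germ cell-like cells (cjPGCLCs). They were chosen by gene symbol, from a list of 9 genes: the receptor genes LIFR (gene 100413035) and IL6ST (100396729), the kinase gene JAK1 (100385835), the transcription factor gene STAT3 (100389282), the inhibitor genes SOCS2 (100396208) and SOCS3, and PIM1 (100391311), PIM2 (100404269) and PIM3 (100394799). Of these, 8 were measured, out of 14812 genes in the table, and SOCS3 was not analysed here. All 8 passed the filter on low values and none was listed at 0 in any library, but IL6ST reached the filter in 7 of 54 libraries and JAK1 in 19, so the levels of these 2 genes lay close to the filter. The filter kept 11197 genes with a log2(TPM + 1) of at least 1.5 in at least 1 library.

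LIF binds LIFR, which pairs with IL6ST (gp130), and the JAK kinases held by these receptors phosphorylate STAT3. STAT3 then enters the nucleus and raises transcription of its targets, among them genes of the SOCS proteins, which damp cytokine signalling. PIM1, PIM2 and PIM3 are serine/threonine kinases that are active as soon as they are made, so their amount is set largely by transcription and protein turnover, and their genes are known targets of STAT factors. LIF is a usual component of media that induce PGCLCs from pluripotent cells.

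Poly(A) RNA was sequenced from 27 conditions with 2 replicates each. All cells came from the single cjESC line CMES40 and carried the reporters BLIMP1-tdTomato and NANOS3-eGFP. cjESCs maintained in DK20FA and the cells induced from them carried in addition rtTA, tetO-BLIMP1, SOX17-GR and DD-TFAP2C transgenes; SOX17-GR is a fusion that dexamethasone switches on, and the labels number the TFAP transgene differently from library to library. cjESCs maintained in PESFA and the cells derived from them carried none of these transgenes. The transgene line was cultured for 12, 24, 48 and 96 h with BMP4, LIF, SCF, EGF and ROCK inhibitor (BLSE), with the same factors and enforced SOX17 (SOX17 + BLSE), or with SOX17 and the factors without BMP4 (SOX17 + LSE). The line without transgenes was first pre-treated for 24 h with IM12 and activin A, then cultured for the same times with BLSE and the tankyrase inhibitor IWR1 (BLSE + IWR1) or with both and the retinoic acid receptor inverse agonist BMS493 (BLSE + IWR1 + BMS), with a further time at day 6 in BLSE + IWR1. Day 6 cells were then aggregated with mouse gonadal somatic cells as xenogeneic reconstituted ovaries (xrOvaries) and recovered at days 20, 40 and 70. LIF was in every induction medium, and the labels list none for cjESCs, pre-treated cells or xrOvaries.

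The cells differed in how they were sorted. cjESCs and pre-treated cells were TRA-1-60(+), cells at 12 to 48 h were unsorted, and cells from 96 h on were tdTomato(+), except for those in BLSE at 96 h, which were unsorted. The labels call the tdTomato(+) cells of SOX17 + LSE at 96 h differentiated; 6 PGC markers in them summed to 2514 to 2727 TPM. TPM are transcript levels scaled to a fixed sum in each library. Over the 14812 genes listed here that sum was not equal, and lay between 790300 and 839203. The 6 PGC markers were SOX17, PRDM1 (BLIMP1), TFAP2C, NANOS3, KIT and PDPN. Their summed TPM lay between 2398 and 3377 in the tdTomato(+) cells at 96 h with BMP4. In BLSE at 96 h it lay between 256 and 290. SOX17, PRDM1 and TFAP2C are also the genes of the transgenes, and tdTomato reports PRDM1. The sum is therefore not independent of the enforced SOX17 or of the sort. The 7 mesoderm and stroma markers summed to 165 to 376 TPM in these tdTomato(+) cells and to 4109 to 5014 TPM in BLSE at 96 h. A high sum of these markers was not particular to BLSE. It was 3089 to 3498 TPM in cjESCs in PESFA, 2442 to 4373 TPM in pre-treated cells and 723 to 1319 TPM in cjESCs in DK20FA. In bulk RNA, fewer cells of a type and less RNA per cell cannot be told apart. Every comparison of induced cells with cjESCs or pre-treated cells also changed how the cells were sorted. In these comparisons a change in the cells and the selection of cells cannot be told apart. In BLSE + IWR1 at 48 h, all 8 genes were lower in replicate 1 than in replicate 2, with a median ratio of 2.10 (replicate 2 to replicate 1). Values that rest on this library are also given without it. A uniform order was also seen in BLSE at 12 and 24 h, where all 8 genes were lower in replicate 2. The median ratios there were 0.856 and 0.805. The correlation of replicates across genes lay between 0.977 and 0.994, and the depth of the libraries is unknown because TPM keep no read totals.

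Across the 27 conditions, the ratio of the highest to the lowest condition mean was 3.26 for PIM3, 3.54 for STAT3, 8.37 for JAK1, 8.43 for IL6ST and 9.53 for PIM1. It was 17.2 for LIFR, 18.7 for SOCS2 and 158 for PIM2. STAT3 varied between 2.58 and 13.3 TPM with a median of 6.15 TPM over the 54 libraries. The replicates of neighbouring conditions in the order of STAT3 levels overlapped in 25 of 26 pairs. For the other genes this number lay between 15 (PIM2) and 25 (IL6ST). IL6ST and JAK1 were weak throughout, with highest values of 3.04 and 4.08 TPM. PIM1 lay between 24.4 and 293 TPM and PIM3 between 18.9 and 70.6 TPM, so that every library contained PIM transcripts far above those of the receptor partner and the kinase. TPM are scaled by transcript length, which allows these levels to be set beside each other.

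**Figure D1:**
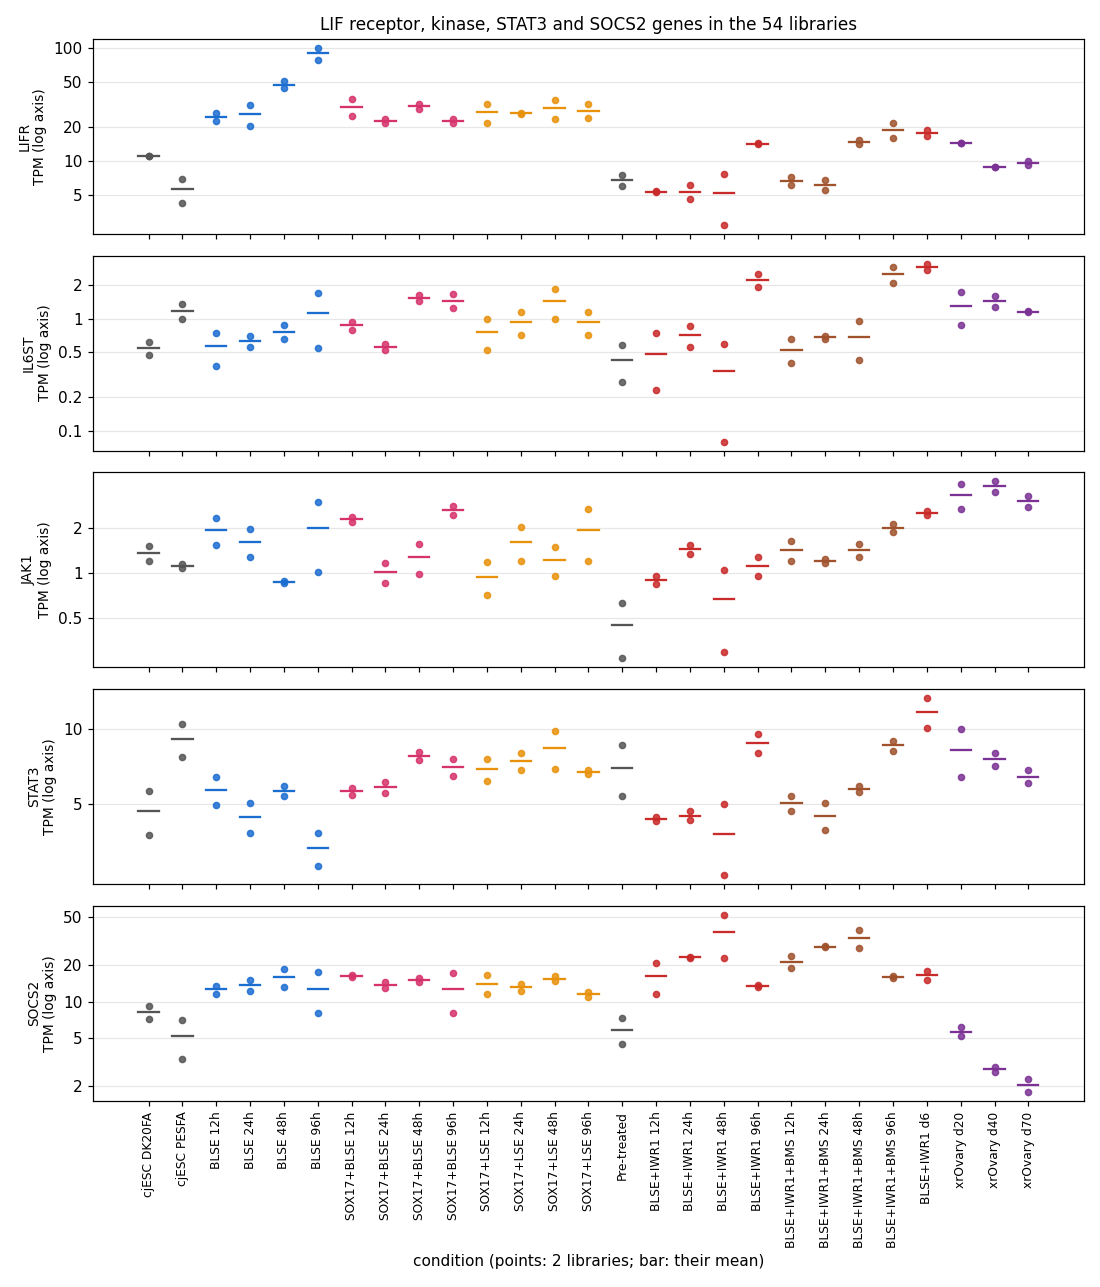
TPM of LIFR, IL6ST, JAK1, STAT3 and SOCS2 on log axes in each of the 27 conditions; points are the 2 libraries and bars their mean. LIFR climbs to 99.6 TPM in BLSE at 96 h and stays under 8 TPM in BLSE + IWR1 up to 48 h, and SOCS2 falls to 1.78 TPM in xrOvaries at day 70.

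LIFR, the ligand-binding receptor chain, rose in the transgene line at the first time measured. cjESCs in DK20FA had 11.01 and 11.03 TPM of LIFR, and cells after 12 h had 26.2 and 22.3 TPM (BLSE), 35.3 and 24.6 TPM (SOX17 + BLSE) or 32.0 and 21.7 TPM (SOX17 + LSE). Every induced library lay above both libraries of cjESCs. The differences in log2(TPM + 1) were 1.07 (SE 0.26, limma adjusted p = 0.0042), 1.34 (adjusted p = 0.00028) and 1.19 (adjusted p = 0.0015). At 12 h against cjESCs, LIFR was 1 of 2 members called at an adjusted p under 0.01 in each of these 3 conditions, where 7.41%, 9.82% and 8.35% of all genes tested were called. The call in BLSE at 12 h was lost when either replicate of either group was left out, with adjusted p between 0.0205 and 0.0524, and that in SOX17 + BLSE without its replicate 1 (adjusted p = 0.0185). The call in SOX17 + LSE was lost without replicate 1 or 2 of the cjESCs (adjusted p = 0.0172 and 0.0125) or its own replicate 1 (0.91, adjusted p = 0.0501). LIF, BMP4, the other factors, the basal medium and aggregation changed together on entry, so the part of LIF in these changes cannot be told apart. The sorting changed as well: the cjESCs were sorted and the cells at 12 h were unsorted. A change in the cells and the selection of cells therefore cannot be told apart either.

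By 96 h the LIFR level in BLSE lay above that of both SOX17 conditions of this line, while at 24 h their libraries overlapped with those of BLSE. Between SOX17 with and without BMP4, LIFR was not called at 24, 48 or 96 h. In BLSE it went on to 31.1 and 20.2 TPM at 24 h, 43.7 and 50.1 TPM at 48 h and 99.6 and 78.3 TPM at 96 h, the highest condition of the study. The log2 differences from cjESCs were 1.12, 1.99 and 2.89 (adjusted p = 0.0018, 1.5e-07 and 1.5e-11). With SOX17 and BMP4 the level was 31.6 and 28.8 TPM at 48 h and 21.5 and 23.5 TPM at 96 h, and without BMP4 it was 34.7 and 23.3 TPM and then 24.0 and 31.6 TPM. At 24, 48 and 96 h against cjESCs, LIFR was called in all 3 media of this line. It was among 2, 3 and 3 members called in BLSE, where 11.7%, 19.8% and 29.5% of all genes were called. In SOX17 + BLSE 1, 4 and 4 members were called, where 16.8%, 26.3% and 43.2% of all genes were, and in SOX17 + LSE 3, 1 and 3 members, where 11.2%, 13.5% and 33.8% of all genes were. At 96 h the tdTomato(+) cells of SOX17 + BLSE lay far below the unsorted cells in BLSE, without overlap (log2 difference -1.93, 95% interval -2.45 to -1.40, adjusted p = 8.62e-08). At 48 h, when both were unsorted, the log2 difference was -0.62 and was not called (adjusted p = 0.081). The mesoderm and stroma markers stood at 4109 to 5014 TPM in the higher group at 96 h. They summed to 3089 to 3498 TPM in cjESCs in PESFA, where LIFR was 6.91 and 4.26 TPM. In cjESCs in DK20FA, where LIFR was 11.01 and 11.03 TPM, they summed to 723 to 1319 TPM. The part of these markers in the LIFR level was not tested.

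In the line without transgenes LIFR did not follow that course. It was 6.91 and 4.26 TPM in cjESCs in PESFA, 7.48 and 5.99 TPM after pre-treatment, and 5.26 and 5.37 TPM after 12 h in BLSE + IWR1. At 24 h it was 4.61 and 6.06 TPM and at 48 h 2.71 and 7.61 TPM, values that overlap with the starting cells. The change from the starting cells at 48 h was lower in BLSE + IWR1 than in BLSE by 2.44 on the log2 scale (95% interval -3.19 to -1.69, adjusted p = 5.22e-06), and by 1.83 without the low replicate (adjusted p = 0.000186). LIFR and PIM2 were the 2 members called in that comparison, where 12.2% of all genes were called, and without the low replicate SOCS2 was called as well. At 12 h the LIFR difference of -1.35 was not called (adjusted p = 0.0124). The 2 courses differ in line, maintenance medium, pre-treatment and IWR1, which cannot be told apart.

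At later times of BLSE + IWR1 1, 3 and 6 members were called against pre-treated cells at 24, 48 and 96 h, where 9.46%, 19.2% and 40.1% of all genes were called; at 48 h 2 were called without the low replicate, which lost PIM3. With BMS493 these numbers were 2, 4 and 7 members, with 12.3%, 19.5% and 38% of all genes, and at day 6 they were 6 members with 42.1%. LIFR reached 14.3 and 13.9 TPM in the tdTomato(+) cells of BLSE + IWR1 at 96 h, a rise of 0.98 on the log2 scale over pre-treated cells (adjusted p = 0.0020). With BMS493 it was already at 13.9 and 15.1 TPM at 48 h, against 2.71 and 7.61 TPM without it, and this was the member called among 8 for BMS493 at 48 h (log2 difference 1.46, adjusted p = 0.000274; 4.83% of all genes were called). Without the low replicate of BLSE + IWR1 the difference was 0.85 and was no longer called (adjusted p = 0.0395). Mesoderm and stroma markers summed to 2705 to 3321 TPM with BMS493 and to 1570 to 1597 TPM without it at that time. In the pre-treated cells, where LIFR was 7.48 and 5.99 TPM, they summed to 2442 to 4373 TPM. The part of these markers was not tested. In xrOvaries LIFR was 14.5 and 14.3 TPM at day 20 and 9.21 and 9.86 TPM at day 70, below the 18.6 and 16.4 TPM of day 6 (log2 difference at day 70 -0.81, adjusted p = 0.011, not called). Between day 6 and day 70 the 4 members called were IL6ST, SOCS2 and PIM3, which fell, and PIM1, which rose, where 31.3% of all genes were called. IL6ST reached the filter on low values through day 6 and a few other groups in which it was high. Its call against day 6 is therefore not independent of the filter. The IL6ST call was lost with a pseudocount of 0.1 (adjusted p = 0.0699), under median-ratio scaling (-0.68, adjusted p = 0.0267) and under quantile normalization (-0.53, adjusted p = 0.0732). Between successive xrOvary times 0 of 8 were called by limma, with 3 members (day 40 against 20) and 1 member (day 70 against 40) at an unadjusted p under 0.05, where 4.6% and 2.73% of all genes were called.

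IL6ST, the signalling chain shared by the receptors of the IL-6 family, stayed near the lower end of what was measured. It was 0.47 and 0.62 TPM in cjESCs in DK20FA, 1.35 and 0.99 TPM in PESFA, and 0.58 and 0.27 TPM after pre-treatment. The highest values were in tdTomato(+) cells of the line without transgenes: 1.9 and 2.51 TPM in BLSE + IWR1 at 96 h, 2.10 and 2.91 TPM with BMS493, and 3.04 and 2.69 TPM at day 6. These 6 libraries lay above every other library of the study. Together with replicate 1 of SOX17 + LSE at 48 h, they were the 7 libraries in which IL6ST reached the filter. IL6ST entered the tests through the groups in which it was high, so its calls that involve these groups are not independent of the filter. This holds for the calls below and for every count of members called that includes IL6ST. The rise over pre-treated cells was 1.17, 1.3 and 1.45 on the log2 scale (adjusted p = 0.00023, 6.2e-05 and 1.0e-05), and over cjESCs in PESFA at day 6 it was 0.84 (adjusted p = 0.0057). The last call was lost with a pseudocount of 0.1 (adjusted p = 0.0577), under median-ratio scaling (0.69, adjusted p = 0.0169) and without any 1 of its 4 libraries (adjusted p between 0.0109 and 0.0603). In the tdTomato(+) cells of SOX17 + BLSE at 96 h IL6ST was 1.65 and 1.25 TPM, and the log2 difference from cjESCs of 0.66 was not called (adjusted p = 0.028).

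JAK1, the kinase bound to IL6ST and LIFR, changed from 1.21 and 1.52 TPM in cjESCs in DK20FA to 2.45 and 2.78 TPM in SOX17 + BLSE at 96 h, which was not called (log2 difference 0.61, adjusted p = 0.051). In the other line it was 0.63 and 0.27 TPM after pre-treatment, 2.44 and 2.57 TPM at day 6 (log2 difference 1.28, adjusted p = 0.00011) and 1.86 and 2.13 TPM at 96 h with BMS493 (1.06, adjusted p = 0.0012). Without BMS493 it was 1.28 and 0.95 TPM at 96 h, and the difference of 0.55 was not called (adjusted p = 0.083). Against cjESCs in PESFA, at 1.14 and 1.08 TPM, the difference at day 6 was 0.73 and was not called (adjusted p = 0.019). The highest JAK1 values were in xrOvaries, 4.08 and 3.45 TPM at day 40.

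STAT3, the transcription factor at the end of the path, was not called on entry into any induction medium at 12 h. In cjESCs in DK20FA it was 3.75 and 5.61 TPM and at 12 h BLSE gave 6.42 and 4.95 TPM, SOX17 + BLSE 5.8 and 5.41 TPM and SOX17 + LSE 7.56 and 6.19 TPM. The log2 differences lay between 0.24 and 0.49, with adjusted p of 0.19 or more, and the 95% interval in BLSE was -0.24 to 0.73. In BLSE + IWR1 it was 4.26 and 4.41 TPM at 12 h, below the 5.37 and 8.58 TPM of pre-treated cells, a log2 difference of -0.55 that was not called (adjusted p = 0.15). These values describe STAT3 transcripts, and phosphorylated STAT3 was not measured here.

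At 96 h the STAT3 libraries of BLSE (2.8 and 3.81 TPM) and of SOX17 + BLSE (6.48 and 7.58 TPM) did not overlap (log2 difference 0.91, SE 0.24, adjusted p = 0.0017). This call was lost under median-ratio scaling (0.65, adjusted p = 0.0146) and quantile normalization (0.53, adjusted p = 0.0400), and without replicate 1 of BLSE (adjusted p = 0.0383) or replicate 2 of SOX17 + BLSE (adjusted p = 0.0240). In BLSE + IWR1 it rose from 2.58 and 4.96 TPM at 48 h to 7.99 and 9.51 TPM at 96 h (1.07, adjusted p = 0.00039), a call lost without the low replicate (0.71, adjusted p = 0.0404). The cells in BLSE at 96 h and in BLSE + IWR1 at 48 h were unsorted, while the cells set against them were tdTomato(+). A change in the cells and the selection of cells cannot be told apart in these comparisons. Day 6 cells had the highest mean of STAT3, 13.3 and 10.1 TPM, and cjESCs in PESFA, at 7.67 and 10.5 TPM, overlapped with them.

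SOCS2, an inhibitor of cytokine signalling that STAT factors can induce, rose on entry into BLSE + IWR1. It was 7.28 and 4.42 TPM in pre-treated cells, 20.8 and 11.7 TPM at 12 h, 23.6 and 23.0 TPM at 24 h and 23.1 and 52.5 TPM at 48 h. With BMS493 it was 18.99 and 23.7, 28.7 and 28.6, and 28.0 and 38.9 TPM at these times. All 12 induced libraries lay above both of the pre-treated cells. The pre-treated cells were sorted and the induced cells were unsorted, so a change in the cells and the selection of cells cannot be told apart. The differences in log2(TPM + 1) were 1.31 (SE 0.32, adjusted p = 0.0048), 1.86 (adjusted p = 5.3e-05) and 2.42 (adjusted p = 2.9e-07) without BMS493, and 1.73, 2.15 and 2.35 with it (adjusted p = 0.00023, 4.2e-06 and 4.0e-07). SOCS2 was the member called of 8 at 12 h in each medium, where 6.79% and 6.53% of all genes were called. The call at 12 h without BMS493 was lost without replicate 2 of the pre-treated cells (adjusted p = 0.164) or replicate 1 of BLSE + IWR1 (adjusted p = 0.141) and without the filter on low values (adjusted p = 0.0116). The call at 12 h with BMS493 was lost without replicate 2 of the pre-treated cells (1.42, adjusted p = 0.0269) or its own replicate 2 (adjusted p = 0.0120). At 48 h the difference without BMS493 was 3.0 without the low replicate (adjusted p = 1.0e-07).

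Pre-treatment itself, which had no LIF listed, called 0 of the 8 members against cjESCs in PESFA by limma, with 2 at an unadjusted p under 0.05 (IL6ST and JAK1, both lower), and 0.304% of all genes were called. SOCS2 was 7.03 and 3.32 TPM in those cjESCs. In the transgene line SOCS2 went from 7.22 and 9.22 TPM in cjESCs at the start to 13.5 and 11.7 TPM after 12 h of BLSE and to 16.7 and 16.1 TPM after 12 h of SOX17 + BLSE. No library of the induced cells overlapped with the cjESCs, but the log2 differences of 0.57 and 0.93 were not called (adjusted p = 0.28 and 0.045). Whether the response of SOCS2 differed between the lines was tested at 12 h (difference 0.74, adjusted p = 0.33) and at 48 h (1.55, adjusted p = 0.0132), and neither was called. Without the low replicate of BLSE + IWR1 the difference at 48 h was 2.13 and was called (adjusted p = 0.0011).

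SOCS2 then fell. In BLSE + IWR1 it was 13.6 and 13.3 TPM in the tdTomato(+) cells at 96 h, 1.31 lower on the log2 scale than in the unsorted cells at 48 h (adjusted p = 0.0011), or 1.89 lower without the low replicate, and 18.03 and 15.1 TPM at day 6, still 1.57 above cjESCs in PESFA (adjusted p = 8.92e-05; 1.13 and not called without replicate 2 of PESFA, adjusted p = 0.0149). After day 6 cells left the LIF medium for xrOvaries it was 6.11 and 5.14 TPM at day 20, 2.88 and 2.59 TPM at day 40 and 2.27 and 1.78 TPM at day 70. Neither day 20 library overlapped with day 6, and the log2 differences from day 6 were -1.41 at day 20 (adjusted p = 0.00091) and -2.54 at day 70 (adjusted p = 3.8e-08). The call at day 20 was lost without replicate 1 of day 6 (-1.29, adjusted p = 0.0196) or replicate 2 of day 20 (-1.3, adjusted p = 0.0169). The medium, the mouse cells and the time in culture changed together with LIF, and they cannot be told apart.

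**Figure D2:**
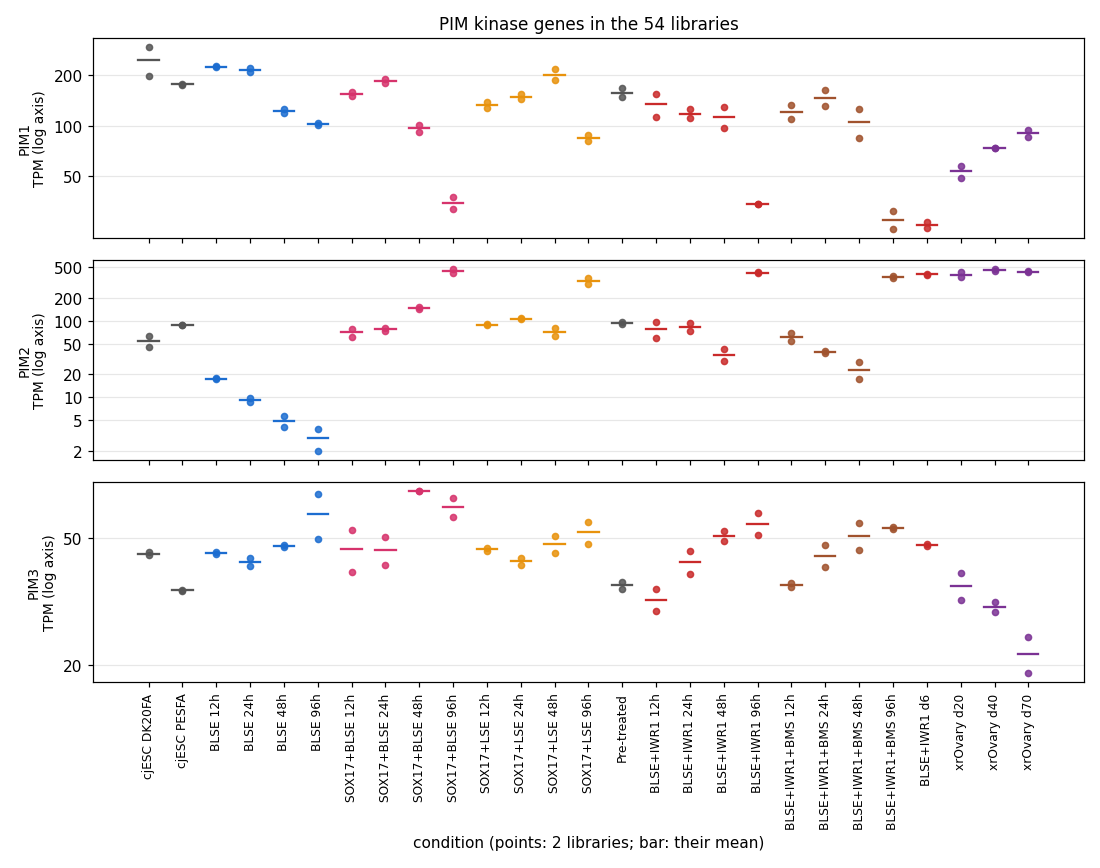
TPM of PIM1, PIM2 and PIM3 on log axes in each of the 27 conditions; points are the 2 libraries and bars their mean. PIM2 falls to 2.0 and 3.9 TPM in BLSE and reaches at least 307 TPM in every tdTomato(+) population, while PIM1 is lowest, at 24.4 to 37.5 TPM, in tdTomato(+) cells at 96 h with BMP4 and at day 6.

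PIM2 separated the conditions more than any other member. cjESCs in DK20FA had 62.6 and 45.2 TPM. In BLSE the level fell to 17.8 and 17.3 TPM at 12 h, 9.82 and 8.71 TPM at 24 h, 5.66 and 4.08 TPM at 48 h and 2.0 and 3.9 TPM at 96 h. Each of these libraries lay below both of the cjESCs. The cjESCs were sorted and the cells in BLSE were unsorted at every time. A change in the cells and the selection of cells cannot be told apart here. The log2 differences from cjESCs were -1.55, -2.40, -3.22 and -3.82 (SE 0.21; adjusted p = 1.6e-06, 7.9e-11, 9.6e-15 and 3.2e-17).

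With SOX17 the gene did not fall. SOX17 + BLSE gave 61.5 and 79.3 TPM of PIM2 at 12 h, 74.1 and 81.3 TPM at 24 h, 153 and 143 TPM at 48 h and 477 and 427 TPM at 96 h. At every time both libraries lay above both libraries of BLSE at the same time. The log2 differences were 1.93 (95% interval 1.51 to 2.36), 2.94, 4.68 (4.26 to 5.10) and 6.88 (6.46 to 7.31), with adjusted p of 5.96e-08, 1.4e-12, 8.14e-19 and 3.70e-25; on the TPM + 1 scale the last is 118-fold. At 12 h and at 24 h PIM2 was the member called among the 8, where 2.4% and 7.56% of all genes were called, and the unsorted cells of these times share the gate. The effect at 48 h exceeded that at 12 h by 2.75 on the log2 scale (adjusted p = 1.06e-07), the 1 member called for that change, where 2.46% of all genes were called. SOX17 was switched on with dexamethasone, and the BLSE cells had none listed, so the 2 agents cannot be told apart. Of 9 measured glucocorticoid receptor targets 8 were tested, and 0 of these were called between the conditions at 12 h. With 2.4% of all genes called there, a count of 0 among 8 is near the share over all genes. The part of dexamethasone in the PIM2 difference was not tested.

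At 96 h the comparison also set tdTomato(+) cells against unsorted cells, and 45.4% of all genes were called. Of the members, 4 were called: PIM2 and STAT3 higher, PIM1 and LIFR lower. At 48 h, between unsorted cells, 2 were called, PIM2 and PIM3, where 16.7% of all genes were called. PGC markers at 48 h summed to 1715 to 1721 TPM with SOX17 and to 389 to 401 TPM without it. SOX17 is itself 1 of these markers, so their sum is not independent of the condition. The part of these markers in the PIM2 difference was not tested.

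SOX17 + LSE, without BMP4, gave 89.8 and 88.4 TPM of PIM2 at 12 h, 109 and 105 TPM at 24 h, 63.2 and 79.4 TPM at 48 h and 366 and 307 TPM at 96 h. The value at 48 h lay below that with BMP4 without overlap (log2 difference with minus without BMP4 1.05, adjusted p = 0.00038). The call was lost without replicate 1 of SOX17 + BLSE (1.0, adjusted p = 0.0113) or replicate 1 of SOX17 + LSE (0.89, adjusted p = 0.0228). At 12 h and at 24 h the differences were -0.35 and -0.46 and were not called, and the change of the difference from 12 to 48 h was 1.40 (adjusted p = 0.0038), a call lost with a pseudocount of 0.1 (adjusted p = 0.0138) or without the filter (adjusted p = 0.0115). PIM1 and PIM2 were the 2 members called for this change, where 1.26% of all genes were called. At 96 h both groups were tdTomato(+), and the difference of 0.43 was not called (95% interval 0.01 to 0.86, adjusted p = 0.19).

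**Figure D3:**
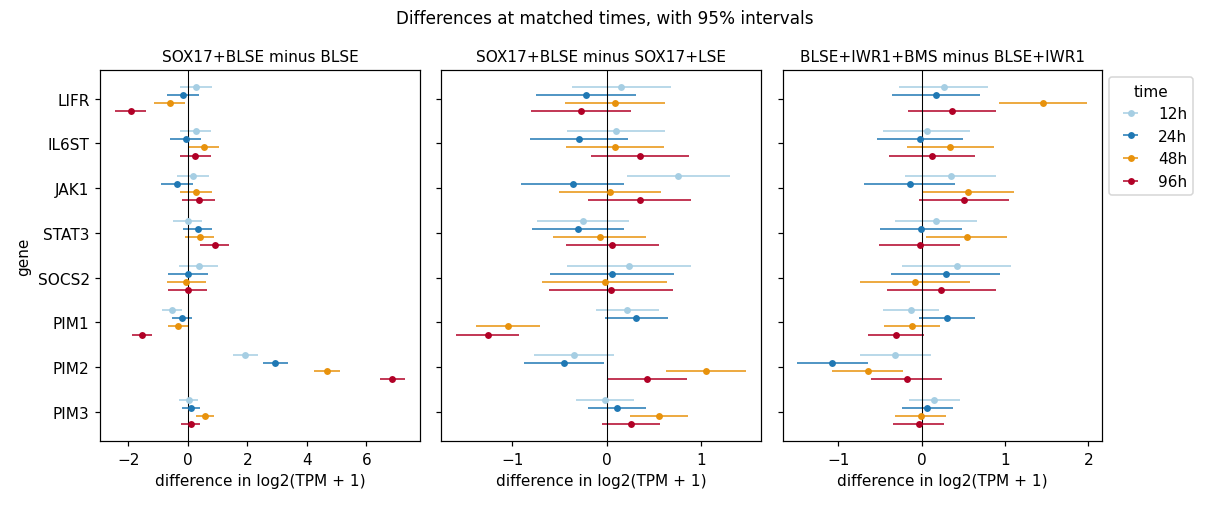
Differences in log2(TPM + 1) of the 8 genes between conditions at the same time, with 95% intervals from limma; colours mark 12, 24, 48 and 96 h. In the left panel (SOX17 + BLSE minus BLSE) PIM2 moves from 1.93 to 6.88, and in the middle panel (with minus without BMP4) PIM1 stands at -1.05 and -1.26 at 48 and 96 h.

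In the line without transgenes PIM2 started higher, at 89.3 and 88.9 TPM in cjESCs and 90.1 and 96.8 TPM after pre-treatment. In BLSE + IWR1 it was 59.8 and 97.0 TPM at 12 h, 74.3 and 92.7 TPM at 24 h and 29.6 and 42.4 TPM at 48 h, and of these 3 times it was called lower than in pre-treated cells at 48 h (log2 difference -1.37, adjusted p = 3.1e-06; -1.12 without the low replicate). At 96 h the tdTomato(+) cells had 439 and 417 TPM, a rise of 3.56 over 48 h (adjusted p = 3.2e-16), or 3.31 without the low replicate of 48 h. The first set of times was unsorted and the last sorted, so a change in the cells and the selection of cells cannot be told apart. The same step from 48 to 96 h changed PIM2 by 4.03 with BMS493, by 1.60 in SOX17 + BLSE and by 2.22 in SOX17 + LSE (adjusted p = 1.3e-17, 1.5e-07 and 2.9e-10). In it 6 members were called in BLSE + IWR1, 3 with BMS493 and 2 in each SOX17 condition, PIM1 and PIM2, where 33.5%, 31.1%, 23.6% and 19.2% of all genes were called. Without the low replicate 4 were called in BLSE + IWR1, which lost LIFR and STAT3. With BMS493 the values were 68.5 and 54.3, 40.3 and 37.8, 17.2 and 28.7, and 389 and 367 TPM. For the change of the BMS493 effect from 12 to 48 h 0 of 8 members were called by limma, with 1 (LIFR) at an unadjusted p under 0.05, where 0.0893% of all genes were called. The BMS493 differences of -1.07 at 24 h and -0.65 at 48 h were not called (adjusted p = 0.011 and 0.037), nor was the latter without the low replicate (-0.90, adjusted p = 0.0178).

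The fall of PIM2 on entry was smaller in BLSE + IWR1 than in BLSE. The difference between the 2 changes from the starting cells was 1.26 at 12 h (adjusted p = 0.0033) and 1.84 at 48 h (adjusted p = 1.31e-05), and 2.10 at 48 h without the low replicate. At 12 h PIM2 was the member called in this comparison, where 6.16% of all genes were called. Set side by side at the same time, PIM2 was higher in BLSE + IWR1 than in BLSE by 2.06, 3.03, 2.65 and 6.81 on the log2 scale at 12, 24, 48 and 96 h (adjusted p = 1.9e-09, 1.9e-13, 4.1e-12 and 5.5e-25), and by 2.90 at 48 h without the low replicate. At these times 3, 3, 3 and 4 members were called, where 13.8%, 14.6%, 21.2% and 44.1% of all genes were called. Line, transgenes, maintenance medium, pre-treatment and IWR1 differ between these conditions and cannot be told apart. The starting cells also differed, with a mean of 93.5 TPM of PIM2 in pre-treated cells and 53.9 TPM in cjESCs in DK20FA. At 96 h the cells in BLSE + IWR1 were tdTomato(+) and those in BLSE unsorted, so the selection of cells cannot be told apart either.

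All later tdTomato(+) cells kept PIM2 high. The level was 400 and 408 TPM at day 6, 373 and 432 TPM in xrOvaries at day 20, 454 and 478 TPM at day 40 and 438 and 444 TPM at day 70. The log2 difference between day 6 and day 20 was -0.01 (adjusted p = 1.0) and that between day 6 and day 70 was 0.13 (adjusted p = 0.69). From 96 h to day 6 of BLSE + IWR1 0 of 8 members were called by limma, with 2 (JAK1 and PIM1) at an unadjusted p under 0.05, where 2.75% of all genes were called. Day 6 cells exceeded cjESCs in PESFA by 2.17 (95% interval 1.75 to 2.59, adjusted p = 4.67e-11).

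PIM1 moved the other way in the sorted cells. It was 198 and 293 TPM in cjESCs in DK20FA, the condition with the highest mean, and 178 and 173 TPM in PESFA. In the tdTomato(+) cells at 96 h it was 37.5 and 31.8 TPM for SOX17 + BLSE, 34.2 and 34.5 TPM for BLSE + IWR1 and 24.4 and 30.9 TPM with BMS493, and at day 6 it was 26.7 and 24.8 TPM. None of these libraries came near those of the cjESCs. The log2 differences were -2.77 from cjESCs in DK20FA (SE 0.17, adjusted p = 2.3e-16), -2.16 and -2.47 from pre-treated cells (adjusted p = 2.4e-13 and 5.8e-15), and -2.72 at day 6 from cjESCs in PESFA (adjusted p = 2.79e-16).

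The time course of PIM1 before the sort differed between conditions. In BLSE it was 224 and 222 TPM at 12 h, 218 and 207 TPM at 24 h, 118 and 125 TPM at 48 h and 100.2 and 104 TPM at 96 h, and the difference from cjESCs was called from 48 h on (-0.98 and -1.23, adjusted p = 1.3e-05 and 1.32e-07). In SOX17 + BLSE it was 158 and 150 TPM at 12 h, 190 and 180 TPM at 24 h and 91.7 and 101.4 TPM at 48 h. The call at 12 h against cjESCs (-0.64, adjusted p = 0.0053) was lost without replicate 2 of the cjESCs, where the difference was -0.36 (adjusted p = 0.230), and without replicate 1 or 2 of SOX17 + BLSE (adjusted p = 0.0237 and 0.0589). In SOX17 + LSE PIM1 was 137 and 128 TPM at 12 h, 154 and 143 TPM at 24 h, 217 and 185 TPM at 48 h and 88.0 and 80.8 TPM in the tdTomato(+) cells at 96 h. The differences from cjESCs were -0.86, -0.69, -0.26 and -1.50 (adjusted p = 0.00033, 0.0022, 0.28 and 2.0e-09), and the call at 12 h was lost without replicate 2 of the cjESCs (-0.57, adjusted p = 0.0381) or replicate 2 of SOX17 + LSE (adjusted p = 0.0118).

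With BMP4, PIM1 was lower at both late times. The log2 differences with minus without BMP4 were -1.05 at 48 h (95% interval -1.38 to -0.71, adjusted p = 1.5e-05) and -1.26 at 96 h (adjusted p = 9.2e-07), with no overlap of libraries, and 0.22 and 0.31 at 12 and 24 h, which were not called. The change between 12 and 48 h was -1.26 (adjusted p = 0.000995). PIM1 and PIM2 were the 2 members called for BMP4 at 48 h and PIM1 was the member called at 96 h, where 8.01% and 7.11% of all genes were called. At 12 and 24 h 0 of 8 were called by limma, with 1 member at an unadjusted p under 0.05 at each time, and 0.277% and 2.62% of all genes were called.

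In xrOvaries PIM1 rose again, to 49.2 and 57.9 TPM at day 20, 74.1 and 73.2 TPM at day 40 and 94.6 and 85.2 TPM at day 70. Each of these libraries lay above both of day 6. The log2 differences from day 6 were 1.02 at day 20 (adjusted p = 7.1e-06) and 1.76 at day 70 (adjusted p = 3.3e-11). At day 20 PIM1 and SOCS2 were the 2 members called, where 20.4% of all genes were called. The summed TPM of 4 later germ cell markers went from 7.36 to 131 between day 6 and day 70 in the highest library of each.

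PIM3 kept the narrowest range of the PIM genes. It was 45.3 and 44.2 TPM in cjESCs in DK20FA and 34.2 and 34.4 TPM in PESFA. The highest condition was SOX17 + BLSE at 48 h, with 70.6 and 70.6 TPM against 47.0 and 47.7 TPM in BLSE, a log2 difference of 0.57 (SE 0.15, adjusted p = 0.0046) that was lost under median-ratio scaling (0.44, adjusted p = 0.0373) and quantile normalization (0.47, adjusted p = 0.0258) and without any 1 of the 4 libraries (adjusted p between 0.0313 and 0.0344). In xrOvaries PIM3 was 38.9 and 32.0 TPM at day 20, 29.3 and 31.4 TPM at day 40 and 24.4 and 18.9 TPM at day 70, which lay 1.11 below day 6 on the log2 scale (adjusted p = 1.4e-07). The median of all genes differed by 0.20 between median-ratio scaling and TPM in that comparison.

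**Figure D4:**
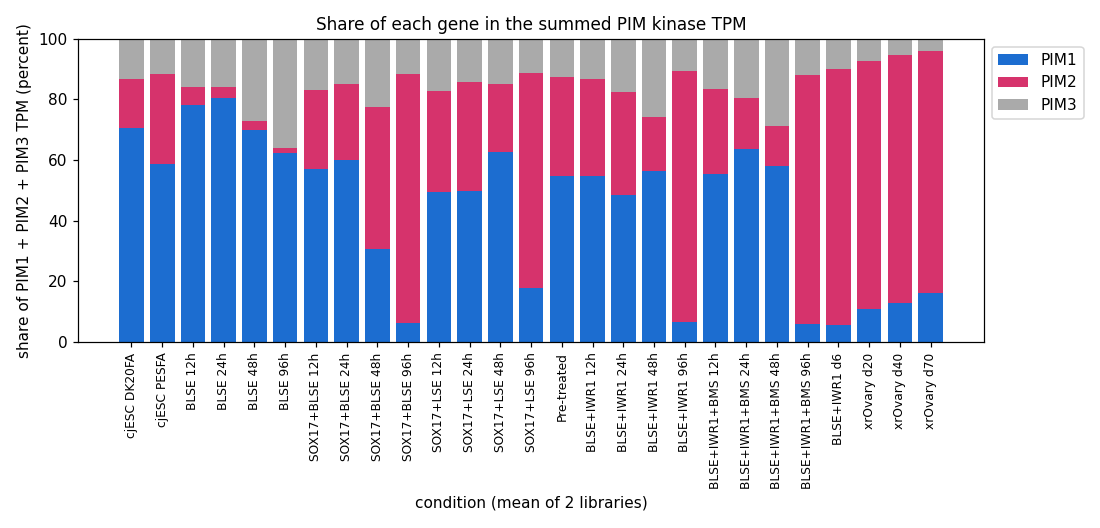
Share in percent of PIM1, PIM2 and PIM3 in their summed TPM in each condition, as the mean of 2 libraries, on an axis from 0 to 100. PIM2 holds 1.76% in BLSE at 96 h and 71.0% to 84.7% in every tdTomato(+) population.

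The makeup of the PIM transcripts changed with these courses. PIM2 held 16.2% ± 6.13 (SD, n = 2) of the summed PIM TPM in cjESCs in DK20FA and 29.8% ± 0.24 in PESFA, and PIM1 held 70.7% ± 8.41 and 58.7% ± 0.41. In BLSE the share of PIM2 went down to 1.76% ± 0.63 at 96 h. In SOX17 + BLSE it was 47.0% ± 2.22 at 48 h and 82.2% ± 1.43 at 96 h, when PIM1 held 6.29% ± 0.35. At day 6 PIM2 held 84.7% ± 0.35, and in xrOvaries at day 70 79.8% ± 1.70. PIM2 was above PIM1 in 18 of 54 libraries and in both libraries of 9 conditions, which were the 8 tdTomato(+) conditions and SOX17 + BLSE at 48 h. The summed PIM TPM had a mean of 344 in cjESCs in DK20FA, 549 in SOX17 + BLSE at 96 h and 165 in BLSE at 96 h.

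The 2 routes to tdTomato(+) cells gave levels that limma did not separate for any member at 96 h. Between BLSE + IWR1 and SOX17 + BLSE 0 of 8 were called, with 2 at an unadjusted p under 0.05 (LIFR and JAK1, both lower in BLSE + IWR1), where 6.08% of all genes were called. The log2 difference was -0.08 for PIM2 (95% interval -0.50 to 0.35) and -0.01 for PIM1 (-0.34 to 0.33), while that of JAK1 was -0.78 (-1.32 to -0.23, adjusted p = 0.053). A difference of 1 on the log2 scale lies inside the intervals of JAK1 and LIFR and outside those of the other 6 members. BMS493 called 0 of 8 members at 12, 24 and 96 h, with 0, 1 and 0 at an unadjusted p under 0.05, and 0%, 0.0893% and 0.732% of all genes were called. At day 6 against cjESCs in PESFA 5 of 8 were called, LIFR, IL6ST, SOCS2, PIM1 and PIM2, where 44.9% of all genes were called.

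cjESCs in the 2 media differed in 3 members, where 16.8% of all genes were called. LIFR was lower in PESFA (log2 difference -0.90, adjusted p = 0.0091), and STAT3 (0.83, adjusted p = 0.0090) and PIM2 (0.73, adjusted p = 0.0079) were higher. LIFR and STAT3 of the 2 groups did not overlap, nor did PIM2, but each call was lost when single libraries were left out: without replicate 2 of PESFA the adjusted p were 0.205, 0.150 and 0.050. Medium and transgenes changed together and cannot be told apart.

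Other genes of the pathway were taken from a list by role. At 12 h, 0 of 3 ligands, 4 receptors, 2 kinases, 3 STATs and 8 inhibitors were called in BLSE or SOX17 + BLSE against cjESCs, and in BLSE + IWR1 against pre-treated cells 1 inhibitor was lower, PIAS3 (-0.80, adjusted p = 0.0076). Of 13 known STAT3 targets, 1 rose and 2 fell in BLSE: JUNB, a subunit of AP-1, rose by 1.1 (adjusted p = 0.0095), and KLF4, a pluripotency factor, changed by -1.94 (adjusted p = 6.0e-09). In SOX17 + BLSE 4 rose and 2 fell, and in BLSE + IWR1 0 rose and 3 fell. Of all genes 7.41%, 9.82% and 6.79% were called in these comparisons. The median log2 difference of the 13 was 0.16, 0.53 and -0.33, against -0.04, 0.01 and 0.02 over all genes.

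In day 6 cells against cjESCs in PESFA, OSMR, the receptor chain for oncostatin M that also pairs with IL6ST, was the receptor of 4 that was called. It rose by 3.53 (adjusted p = 2.4e-14), from 3.12 to 3.98 TPM to 41.6 to 63.7 TPM. In this comparison 44.9% of all genes were called. Of the 13 STAT3 targets 4 rose and 6 fell, with a median of -0.80 against 0.11 over all genes; among those that fell were CEBPD (-5.12, adjusted p = 4.8e-11) and MYC (-3.96, adjusted p = 3.9e-22). LIF itself was listed at 4.22 and 14.0 TPM in cjESCs in PESFA and at 0.48 to 0.71 TPM at day 6. Of 5 PIM substrates 1 was higher, CDKN1B, and 2 were lower, EIF4EBP1 and CDC25A.

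Between BLSE and SOX17 + BLSE at 48 h 7 of the 13 STAT3 targets were higher and 1 lower, where 16.7% of all genes were called, with a median log2 difference of 0.83 against 0.10 over all genes. KLF4 (3.05), TFCP2L1 (2.55) and KLF5 (2.11) differed most, with adjusted p of 1.8e-14, 4.4e-06 and 7.2e-12; all 3 are pluripotency factors. From day 6 to xrOvaries at day 20, where 20.4% of all genes were called, 3 of 4 receptors fell, IL6R by 1.67, OSMR by 1.29 and IL11RA by 1.22 on the log2 scale (adjusted p = 0.00086, 0.00014 and 0.0031). In the same step 6 of 13 STAT3 targets fell and 1 rose, with a median of -0.30 against -0.08 over all genes, and 1 of 8 inhibitors fell, SOCS1 (-1.32, adjusted p = 0.0033). Levels of SOCS2 fell together with these, as given above.

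Likeness of pattern was described by Pearson's r over the 27 condition means of log2(TPM + 1). PIM2 was most like B4GALNT1 (r = 0.98), LRIG1 (0.97) and GMPR (0.96). PIM1 was most like RAD23B, AJUBA and B4GALT6 (all 0.90), and SOCS2 was most like LCAT (0.92), IER2 and PRKCH (both 0.89). Among the members themselves, IL6ST and STAT3 had r = 0.76 and PIM1 and PIM2 r = -0.62, while LIFR and STAT3 had r = 0.07. The conditions share libraries' processing and include successive times of the same culture, and these values are descriptions.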

How the data were processed

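RNA-seq of 54 libraries in 27 groups (2 replicates each, biological ones per the study) was used. Per the labels and the study's methods, strand-specific single reads were mapped by the authors with STAR (marmoset reference) and abundances came from RSEM. These deposited TPM carry no read totals, so the depth of a library cannot be given, nor any counting interval. Fold changes are on the log2(TPM + 1) scale, which makes changes of low genes look smaller than they are. A gene entered the tests if any 1 library reached 1.5 on that scale, which left 11197 of 14812.

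In limma 3.58.1 under R 4.3.3, all 54 libraries shared one cell-means model (27 residual degrees of freedom, intensity trend). For each of 55 contrasts, two-sided p-values were adjusted by Benjamini-Hochberg across the 11197 genes, with no adjustment across contrasts. A call is an adjusted p under 0.01. With 2 against 2 libraries an exact permutation test cannot go below p = 0.33. A list of genes is described by its counts and its median beside that of all genes. On simulated data for BLSE 12 h against cjESCs with 11197 genes, 74 of 100 genes changed by 1 on the log2 scale and 98 of 100 changed by 2 were recovered, with 2 of 10997 unchanged genes called.

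Named genes are the members, at most 3 called genes of a pathway list with the largest changes (further single names were added where a count was small, after their values were seen) and the 3 genes most like a member in pattern, given for PIM1, PIM2 and SOCS2; that result for LIFR is not reported here. The members and lists were chosen with earlier results of these data known. The 2 contrasts between the routes' changes, and fits without BLSE + IWR1 48 h replicate 1, were added after seeing the data. Results were recomputed with median-ratio scaling, quantile normalization, a pseudocount of 0.1, no filter, only the libraries compared, a replicate block, no trend, leaving out each replicate, and the study's rule of over 4-fold. Promoter and protein sequences were not used here. Reads of near-identical gene copies cannot be separated in TPM.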

Additional observations from a re-analysis of the deposited data

Results flagged for a closer look

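Of the differences between times in the same contrast, 3 passed the threshold, each by limma's test of the difference itself. The SOX17 effect on PIM2 was larger at 48 h than at 12 h by 2.75 on the log2 scale (adjusted p = 1.06e-07). The BMP4 effect on PIM1 was lower at 48 h than at 12 h, with a difference of -1.26 (adjusted p = 0.000995). The BMP4 effect on PIM2 was higher at 48 h than at 12 h by 1.40 (adjusted p = 0.00385), and with a pseudocount of 0.1 or without the filter on low values that call was lost (adjusted p = 0.0138 and 0.0115). Cells were unsorted at both times. With 2 libraries a group, no search for outlying libraries was possible.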

How the results depend on the processing

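No called value of a single member reversed its direction under any alternative. For values that were not called, direction was compared only in the fit without the low replicate, and some reversed there. LIFR in BLSE + IWR1 at 48 h against pre-treated cells, for example, went from -0.45 to 0.16. Of 119 called single-member values, 110 stayed past the threshold under median-ratio scaling, 114 under quantile normalization, 112 with a pseudocount of 0.1, 112 without the filter, 114 without the trend and 119 with a replicate block; 28 did so when fitted on only the libraries compared, a fit that has fewer libraries to estimate the spread. In that fit the number of members called went from 5 to 2 at day 6 against cjESCs in PESFA, from 2 to 1 for SOX17 at 48 h, and to 0 for SOX17 at 12 h (from 1), BMP4 at 48 h (from 2) and 96 h (from 1), BMS493 at 48 h (from 1), day 20 against day 6 (from 2), the 2 media (from 3), and every 12 h condition against its starting cells. The 4-fold rule gave the same numbers for these comparisons, and 1 for SOX17 at 96 h, where the main fit called 4. For SOX17 at 96 h the fit on only the libraries compared lost the STAT3 call (limma adjusted p = 0.0425). SOX17 at 12 h had 2 members called under median-ratio scaling, and SOX17 at 48 h had 1 under that scaling and under quantile normalization. The 2 media had 1 called with a pseudocount of 0.1, without the filter or without the trend, SOX17 + BLSE at 12 h against cjESCs had 1 without the filter or the trend, and BLSE + IWR1 at 12 h had 0 without the filter. Except for the fits without the filter, whose added genes enter the adjustment, and the fits of fewer libraries, the cause was not tested.

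When single replicates were left out, the number called was 3 to 4 at day 6 against cjESCs in PESFA, 3 to 4 for SOX17 at 96 h, 1 to 1 for SOX17 at 12 and 48 h, BMP4 at 96 h and BLSE at 12 h, 1 to 2 for BMP4 at 48 h, 1 to 3 for day 20 against day 6, 0 to 2 for BMS493 at 48 h, the 2 media and SOX17 + BLSE at 12 h, 0 to 1 for SOX17 + LSE at 12 h and for both media with IWR1 at 12 h, and 0 to 0 for pre-treatment and for the 2 routes at 96 h. In a fit that took replicate numbers as a block, the number called was 6 in place of 5 at day 6 and 3 in place of 2 for BMP4 at 48 h, and equal to the reported one in the other comparisons listed here; with 2 libraries a group, same-numbered libraries are not shown to be pairs (correlation of deviations -0.0477 to 0.207). Median-ratio scaling shifted the median of all genes by -0.24 for SOX17 at 96 h, -0.16 at day 6 and 0.20 at day 70 against day 6. Depth is unknown, and IL6ST and JAK1 lie near the filter, where log2(TPM + 1) understates change.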
